A study of Mus musculus with 6 samples.

Results

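Imprinted genes, which are read from a single parental copy, were followed in the lateral ganglionic eminence (LGE), the part of the embryonic ventral forebrain that gives rise to striatal projection neurons. The set held 36 named genes, matched by symbol in the deposited table of 29659 genes, and all 36 were found. Of these, 18 are known as paternally expressed, 10 as maternally expressed, and 8 are imprinted only in some tissues or for some of their transcripts. Igf2r was counted with the 10, although its paternal copy is silenced only outside neurons. RNA was sequenced from LGE of C57BL/6 mice at embryonic day 16.5, and each of the 2 groups had 3 libraries. The Zfhx3-CKO embryos carried the Dlx5/6-Cre transgene and floxed Zfhx3 on both copies (Zfhx3F/F), and the controls carried Dlx5/6-Cre alone. Dlx5/6-Cre drives recombination in GABAergic cells of the ganglionic eminences, so that other cells of the dissected tissue keep Zfhx3, a gene for a transcription factor with many zinc fingers and several homeodomains. The labels give neither the deleted exons nor whether a library came from 1 animal or several, so whether the p-values measure spread between animals is not known. Library pairs were compared by a mean chi-square per gene, near 1 where counting noise alone separates them. It was 12.7, 15 and 29.3 between Zfhx3-CKO libraries, 3.35, 9.65 and 8.05 between control libraries, and 27.1 to 37.4 across groups. Zfhx3-CKO libraries 2 and 3 thus differed about as much as some pairs across groups.

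Genomic imprints are DNA methylation marks that are laid down differently in egg and sperm and kept in the body's cells, where they leave a single parental copy of nearby genes active. Many imprinted genes lie in clusters that share a control region, and several clusters hold a long noncoding RNA that is read from the parental copy on which the protein-coding neighbours are silent. Imprinted genes are known for roles in fetal growth and placenta, and many are highly expressed in the developing brain. In neurons the imprint of some genes differs from that elsewhere: Ube3a is silenced on the paternal copy in neurons and read from both copies in most other cells, and Grb10 is maternally expressed in most mouse tissues but paternally in neurons. The counts used here do not tell the parental copies apart.

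Library totals were 18960574 to 20311799 counts in the Zfhx3-CKO group and 15938590 to 16753355 in the control group. The Zfhx3-CKO libraries held 55947 to 59631 counts of Xist and 5 to 8 counts over 4 Y-linked genes, against 5 to 9 and 4939 to 5451 in the controls. Sex and genotype therefore cannot be told apart. All 36 genes are autosomal, which does not lift this limit for them. Zfhx3 itself was at 98.7, 87.3 and 99.3 CPM in Zfhx3-CKO libraries 1, 2 and 3, against 134, 135 and 101 CPM in control libraries 1, 2 and 3, without overlap (log2 fold change -0.37, SE 0.12, adjusted p 0.091); its count covers the whole gene, not the floxed part alone. All 13 LGE and striatal markers were above 1 CPM, with a summed level of 3850 to 4188 CPM in Zfhx3-CKO and 4287 to 4510 CPM in control libraries. This sum covers members that moved both ways: Ebf1 (-2.89), Isl1 (-1.26), Foxp1 (-1.17) and Gad2 (-0.35) fell and Sp9 (1.01) and Six3 (0.60) rose (log2 fold changes; adjusted p 5.17e-05 to 0.0293), and the other 7 did not pass. The summed level of 11 cortical excitatory neuron markers was 179, 46.8 and 277 CPM in Zfhx3-CKO libraries 1, 2 and 3 and 47.2 to 52.2 CPM in the controls; 1 of the 11, Slc17a7, averaged under 1 CPM. Fewer cells of a type and less RNA per cell cannot be told apart in such tissue libraries.

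Promoter sequences were taken from RefSeq (GRCm38.p6), which held at least 1 window, from 250 bases before to 50 after a start, for 30 of the 36 genes. Both strands of 46 windows were searched for TGCCGC, the motif bound by ZFP57, a zinc-finger protein that keeps imprints, and for GGGGCCCC, the motif of PLAGL1, itself a member of the set. TGCCGC stood in 11 of the 46 windows (23.9%) and in 11.6% of all 32851 mouse windows; GGGGCCCC stood in 2 (4.35%) and in 1.08%. The windows are rich in CpG, with a median of 13 CpG for the imprinted genes and 7 for all windows, and some windows of a gene overlap, so these shares are descriptions. Matches of the 2 motifs overlapped in none of the windows. The Mest window is shown because Mest rose and this window holds TGCCGC on the opposite strand at 2 places. Gnas, which rose more, held neither motif in any of its windows, and Impact and Peg10, which fell, had no window. A link between motif and change was not tested. The Peg3 and Usp29 windows are shown because these divergent genes share 1 GGGGCCCC match, which starts at position 6730613. Matches are in capitals; a match is a description of letters and not evidence of binding.
Mest, chr6:30737800-30738099, plus strand: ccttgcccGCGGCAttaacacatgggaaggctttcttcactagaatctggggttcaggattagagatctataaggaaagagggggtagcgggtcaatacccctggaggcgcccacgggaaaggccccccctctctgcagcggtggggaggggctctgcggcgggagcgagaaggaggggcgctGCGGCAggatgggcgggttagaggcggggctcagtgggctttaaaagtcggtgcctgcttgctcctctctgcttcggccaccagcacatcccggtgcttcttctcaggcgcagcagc
Peg3, chr7:6730370-6730669, minus strand: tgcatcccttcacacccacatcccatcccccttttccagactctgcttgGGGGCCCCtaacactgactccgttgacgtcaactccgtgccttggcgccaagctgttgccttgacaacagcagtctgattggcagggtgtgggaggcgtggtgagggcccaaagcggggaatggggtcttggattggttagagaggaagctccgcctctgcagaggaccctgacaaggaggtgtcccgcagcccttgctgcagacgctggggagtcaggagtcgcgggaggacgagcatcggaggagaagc
Usp29, chr7:6730333-6730632, plus strand: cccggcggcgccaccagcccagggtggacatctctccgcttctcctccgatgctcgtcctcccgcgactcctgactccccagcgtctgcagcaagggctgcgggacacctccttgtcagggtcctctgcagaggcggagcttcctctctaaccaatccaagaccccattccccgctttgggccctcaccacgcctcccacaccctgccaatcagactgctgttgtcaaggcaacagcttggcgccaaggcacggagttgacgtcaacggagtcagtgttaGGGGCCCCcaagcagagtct

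The genes covered a wide range of levels. Levels between genes are compared as FPKM, which the authors scaled by the length of all exons of a gene, so that a gene with long exons that few transcripts use is understated. Nnat, which encodes neuronatin, a small membrane protein of developing neurons, stood at 1030, 1069 and 1128 FPKM in Zfhx3-CKO libraries 1, 2 and 3, against 942, 974 and 998 FPKM in control libraries 1, 2 and 3. It alone made up 69.6 to 71.4% of the summed FPKM of the set in Zfhx3-CKO and 68.5 to 69.0% in control libraries, and 99.9% of all tested genes had a lower mean FPKM. Ndn, Mest, H19, Blcap, Grb10, Inpp5f and Peg10 followed, with means over the 6 libraries of 61.5, 48.9, 48.7, 36.9, 33.2, 32.6 and 30.6 FPKM. Neighbours in this order overlapped in their library values: H19 ranged over 40.6 to 59.1 FPKM in Zfhx3-CKO and 44.3 to 57.2 FPKM in control libraries, and Mest over 53.0 to 62.2 FPKM in Zfhx3-CKO and 36.9 to 41.9 FPKM in control libraries. At the other end Phlda2, a growth-restraining gene of the placenta, had 1 count in Zfhx3-CKO library 3 and 0 in the other 5 libraries, and Slc22a18, a transporter gene beside it, had 3 to 5 counts in Zfhx3-CKO and 3 to 8 in control libraries. These 2 genes did not pass the filter on low counts, which left 34 tested.

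**Figure D1:**
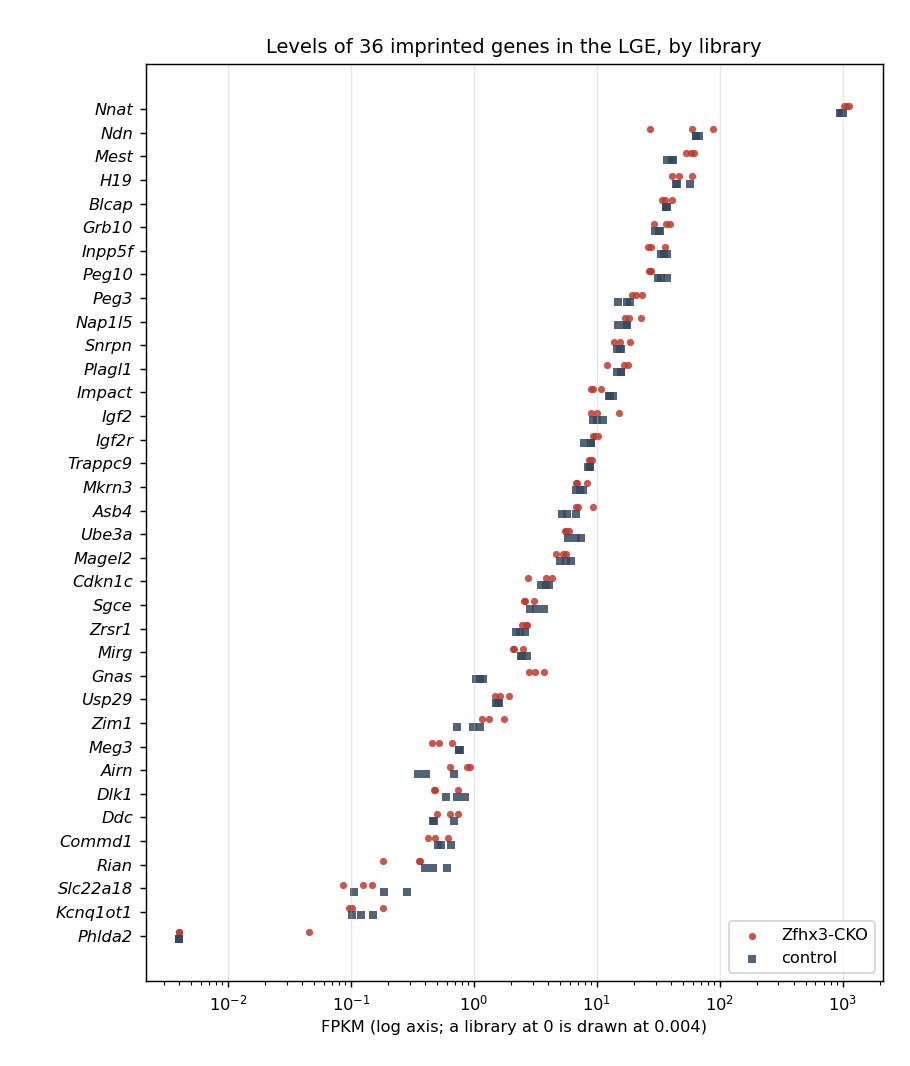
FPKM (log axis) of the 36 imprinted genes in each of 3 Zfhx3-CKO libraries (red circles) and 3 control libraries (dark squares), ordered by mean level, with a value of 0 drawn at 0.004. Nnat stands apart at the top, at 942 to 1128 FPKM, and Phlda2 at the bottom, with 1 count in 1 library.

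In the Zfhx3-CKO LGE, Gnas and Mest rose, Impact and Peg10 fell, and 30 of the 34 tested genes did not pass the threshold (edgeR's quasi-likelihood test, Benjamini-Hochberg adjusted p under 0.05 over all 16551 tested genes). The 4 calls are 11.8% of the 34, where 7.36% of all tested genes were called; by direction the background was 3.87% higher and 3.49% lower. The levels of the 2 groups did not overlap for 10 of the 34 genes (29.4%), 6 above and 4 below the controls, where the same held for 31.4% of all tested genes. The median log2 fold change was 0.02 over the 34 and 0.001 over all tested genes. Of the 18 paternally expressed genes 1 was higher and 2 were lower, with a median of 0.05. Of the 8 tested maternally expressed genes none was called (4 had an unadjusted p under 0.05, and DESeq2 called 0 too), with a median of -0.03 and values from -0.70 to 0.60. Of the 8 genes with tissue- or transcript-dependent imprinting 1 was higher, with a median of 0.02. Neither parental class moved one way as a whole, and a difference between the classes was not tested. Among marker lists, 2 of the 13 LGE and striatal markers rose and 4 fell, 3 of 6 markers of the medial ganglionic eminence rose (summed level 326 to 474 CPM in Zfhx3-CKO and 259 to 292 CPM in control libraries), and 3 of 8 of cycling cells rose (2066 to 2670 CPM in Zfhx3-CKO and 1725 to 1818 CPM in control libraries). With 1 library left out the LGE calls stayed at 2 to 3 higher and 3 to 4 lower. The medial ganglionic eminence had 5 higher without Zfhx3-CKO library 2, 0 without control library 1 or 2, and 1 without control library 3. Cycling cells had 8 higher without Zfhx3-CKO library 3, 0 without Zfhx3-CKO library 1 or control library 1, and 1 without control library 2 or 3. Of 10 tested cortical excitatory neuron markers 1 rose, with all 10 estimates above 0 (median log2 fold change 1.445). Without Zfhx3-CKO library 2 all 10 rose, 1 did without Zfhx3-CKO library 3, and 0 did with any other library left out. Of 9 radial glia and progenitor markers 1 rose (median 0.26). Of 8 maturing neuron markers none was called (median -0.20), with 5 at an unadjusted p under 0.05, again without the share of all tested genes under that cut. All markers of these lists apart from Slc17a7, a cortical marker, averaged at least 1 CPM. The part of these lists in the values of the imprinted genes was not tested.

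**Figure D2:**
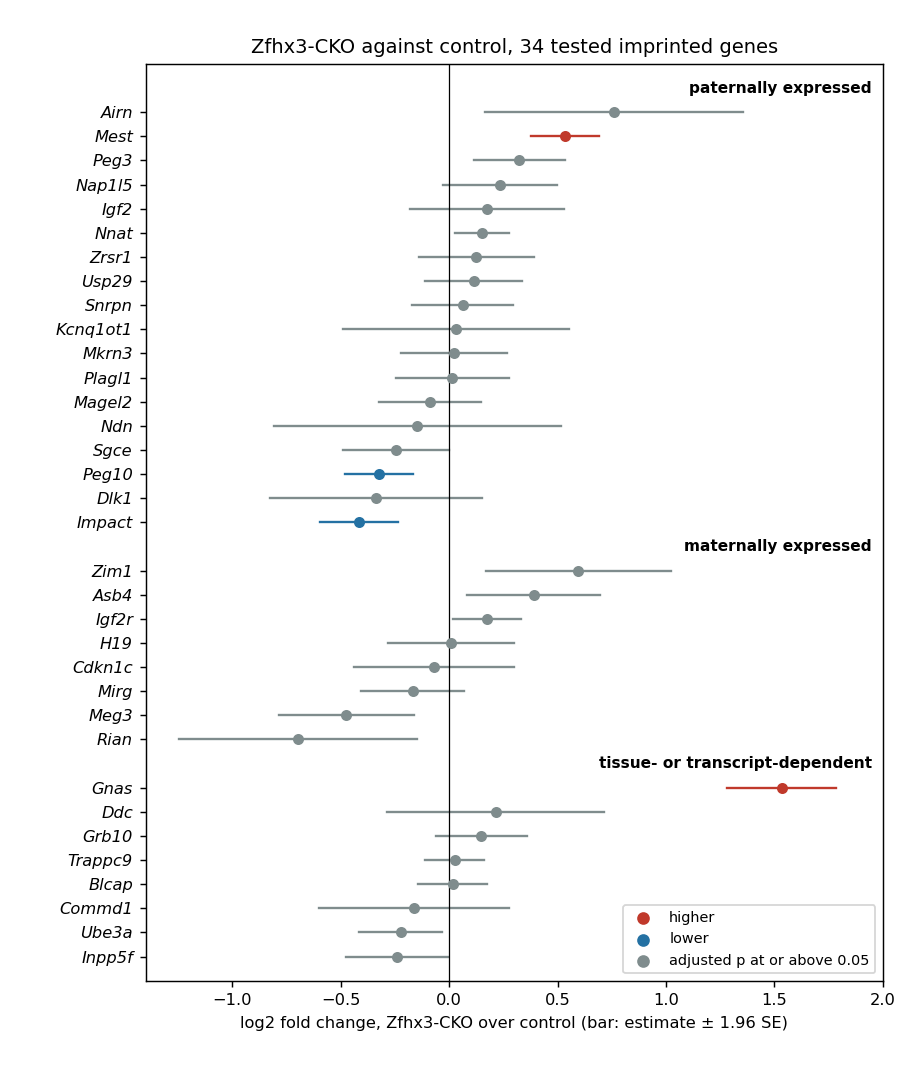
Log2 fold change of Zfhx3-CKO over control for the 34 tested imprinted genes by class; bars are 1.96 SE either side, red marks genes called higher, blue genes called lower and grey the rest. Gnas lies farthest from 0, at 1.53, and the other 33 lie between -0.70 and 0.76.

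Gnas (ENSMUSG00000027523, chromosome 2, 174284320 to 174346744, plus strand, GRCm38) had the largest fold of the 34. Its locus encodes the stimulatory G protein alpha subunit, which links receptors to cAMP, and other transcripts read from the maternal or the paternal copy. It was measured at 34.9, 31.2 and 41.5 CPM in Zfhx3-CKO libraries 1, 2 and 3, against 11.6, 12.5 and 13.03 CPM in control libraries 1, 2 and 3. The lowest Zfhx3-CKO value was well above the highest control value. The rise was 2.90-fold (log2 fold change 1.53, SE 0.13, adjusted p 0.000576), and it passed the threshold in all 14 alternative settings, with log2 fold changes of 0.99 to 1.63. The level was low, at 3.20 ± 0.454 FPKM in Zfhx3-CKO and 1.11 ± 0.067 FPKM in control libraries (SD, n = 3 each); 30.4% of tested genes had a lower mean FPKM. Gnas is known as an abundant transcript of brain, so this level is unexpectedly low, and whether the 2.90-fold rise holds for the main output of the locus cannot be told from this count. The table gives 1 value for the whole locus, so the transcripts behind the rise cannot be named, and the sources used here do not say how reads that fit several transcripts or genes were counted. Nespas, a noncoding RNA antisense to part of the locus, held 7 to 10 counts in Zfhx3-CKO and 13 to 16 in control libraries (log2 fold change -0.95, adjusted p 0.12). In the authors' deposited table Gnas is the only one of the 36 marked as significant (log2 fold change 1.37, adjusted p 4.33e-21). The same authors' deposited table gives adjusted p of 2.53e-06 for Mest, 0.00878 for Impact, 0.0169 for Peg10 and 0.0447 for Peg3, without that mark.

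Mest, a paternally expressed gene for an enzyme of the hydrolase fold (chromosome 6, 30723547 to 30748465), was at 244, 230.0 and 211 CPM in Zfhx3-CKO libraries 1, 2 and 3, against 146, 163 and 164 CPM in control libraries 1, 2 and 3. The groups did not overlap. It rose 1.45-fold (log2 fold change 0.54, SE 0.08, adjusted p 0.00765) and kept its call in 13 of 14 alternative settings. Its locus overlaps Copg2 on the opposite strand, the library kit does not mark strand, and Copg2 was at 86.2 ± 8.52 CPM in Zfhx3-CKO and 91.97 ± 3.63 CPM in control libraries (log2 fold change -0.09, adjusted p 0.535).

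Impact and Peg10, also paternally expressed, fell by smaller amounts. Impact encodes an inhibitor of the amino acid sensor GCN2 (chromosome 18, 12972252 to 12992948); it was at 31.9, 37.0 and 31.2 CPM in Zfhx3-CKO LGE, against 43.7, 43.6 and 46.1 CPM in control LGE (log2 fold change -0.42, SE 0.09, adjusted p 0.0327). Peg10, a gene derived from a retrotransposon and needed for the placenta (chromosome 6, 4747306 to 4760517), was at 177, 181 and 185 CPM in Zfhx3-CKO LGE, against 220.0, 251 and 208 CPM in control LGE (log2 fold change -0.32, SE 0.08, adjusted p 0.0461). For both genes the groups did not overlap. The calls were less stable than those of Gnas and Mest: Impact passed in 8 and Peg10 in 7 of 14 alternative settings, with adjusted p up to 0.155 and 0.174. Impact lost its call without Zfhx3-CKO library 1 (adjusted p 0.124) or without control library 1, 2 or 3 (0.124, 0.126 and 0.0889). Peg10 lost it without Zfhx3-CKO library 1 or 2 (0.158 and 0.0684) or without control library 1 or 2 (0.14 and 0.174). In Zfhx3-CKO library 2 against the controls neither passed (adjusted p 0.155 for Impact and 0.11 for Peg10); this comparison, chosen after seeing the data, has 1 library on its Zfhx3-CKO side, which is assumed to vary as the controls do.

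**Figure D3:**
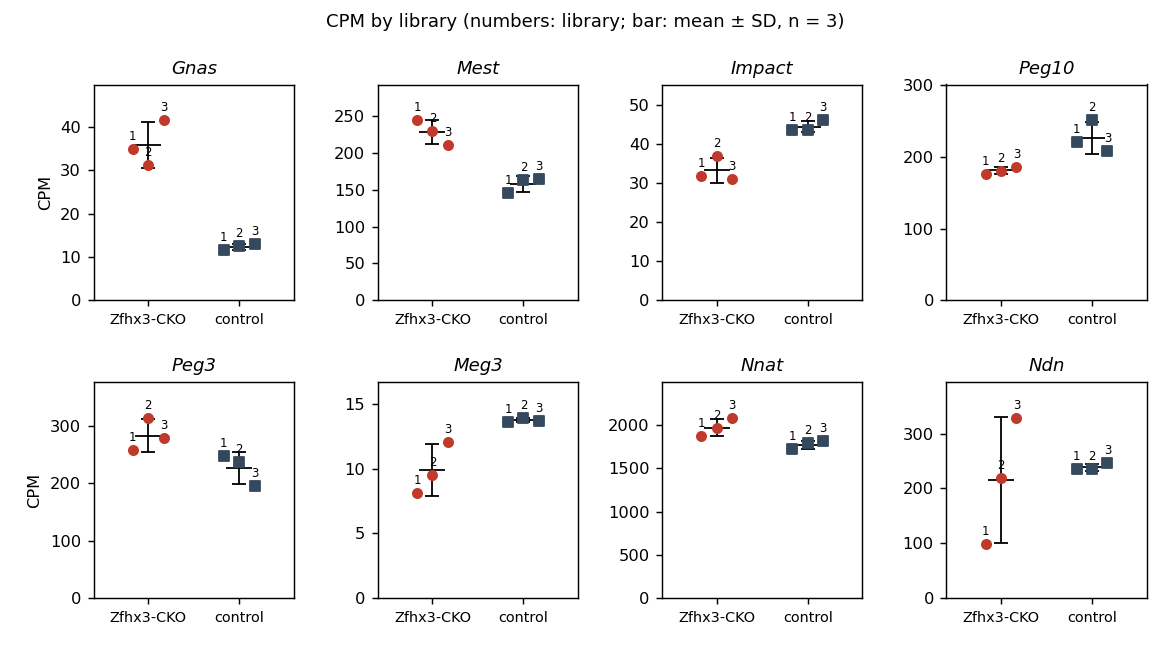
CPM of 8 imprinted genes in each library, numbered by library, Zfhx3-CKO (red circles) left of control (dark squares); bars give the mean ± SD (n = 3). Gnas and Mest sit above and Impact and Peg10 below the controls in every Zfhx3-CKO library, and Ndn spreads over 98.9 to 328 CPM in Zfhx3-CKO LGE alone.

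Peg10 shares a divergent promoter region with Sgce, which encodes epsilon-sarcoglycan and is paternally expressed too, and the maternally expressed Asb4, for an ankyrin repeat and SOCS box protein, lies farther along chromosome 6. Sgce was at 29.1 ± 3.2 CPM in Zfhx3-CKO and 34.5 ± 4.57 CPM in control libraries (SD, n = 3 each; log2 fold change -0.24, adjusted p 0.258). Asb4 was at 26.3, 37.0 and 28.0 CPM in Zfhx3-CKO LGE, against 20.4, 26.8 and 22.5 CPM in control LGE, so that the groups overlapped (log2 fold change 0.39, adjusted p 0.162). Neither passed the threshold; Asb4 passed in Zfhx3-CKO library 2 against the controls (adjusted p 0.0265).

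The Peg3 domain on chromosome 7 holds the paternally expressed Peg3, a large zinc-finger gene, its divergent neighbour Usp29 and the maternally expressed zinc-finger gene Zim1. Peg3 was at 258, 314 and 279 CPM in Zfhx3-CKO LGE, against 247, 237 and 195 CPM in control LGE. The groups were apart, but the lowest Zfhx3-CKO and the highest control library were close, and the difference did not pass (log2 fold change 0.32, SE 0.11, adjusted p 0.103). It passed with DESeq2 (adjusted p 0.049), with no low-count filter (0.0321) and in Zfhx3-CKO library 2 against the controls (0.0462). Zim1 was at 9.30, 10.8 and 14.4 CPM in Zfhx3-CKO LGE, against 9.07, 7.999 and 5.80 CPM in control LGE, also without overlap (log2 fold change 0.60, adjusted p 0.132). Usp29, which starts beside Peg3 and shares the printed promoter region, was at 30.3 ± 4.19 CPM in Zfhx3-CKO and 28.0 ± 0.714 CPM in control libraries (log2 fold change 0.11, adjusted p 0.575). The estimates for Peg3, read from the paternal copy, and Zim1, read from the maternal copy, thus have the same sign, and neither passed.

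The region of mouse chromosome 7 that matches the human Prader-Willi and Angelman syndrome region holds Ndn, Magel2, Mkrn3, Snrpn and Ube3a, and none of these 5 passed. Ndn, which encodes necdin, a growth suppressor of neurons, was at 98.9, 219.9 and 328 CPM in Zfhx3-CKO libraries 1, 2 and 3, against 235, 236 and 246 CPM in control libraries 1, 2 and 3. The controls were within 1.05-fold of each other, and the Zfhx3-CKO libraries spread on both sides of them by 3.32-fold between highest and lowest. Among 10456 tested genes of at least 10 CPM, 55 (0.526%) had a larger ratio between Zfhx3-CKO libraries, and the median ratio was 1.17 in Zfhx3-CKO and 1.13 in control libraries. Ndn was singled out for the widest ratio among the 26 imprinted genes at that level, so its rank is a description. Of these 26, 3 had a ratio above 1.5 between Zfhx3-CKO libraries, as did 10.2% of the 10456 genes. The log2 fold change of Ndn was -0.15 (1.96 SE either side, -0.81 to 0.51), and it was 0.20 without Zfhx3-CKO library 1 and -0.58 without library 3 (adjusted p 0.516 and 0.169). Its neighbours did not share this spread, with 1.21-fold for Magel2, 1.24-fold for Mkrn3 and 1.36-fold for Snrpn between the highest and lowest Zfhx3-CKO library. Magel2, a related gene of the MAGE family next to it, was at 24.5, 21.7 and 26.3 CPM in Zfhx3-CKO libraries 1, 2 and 3, against 25.8, 28.6 and 22.8 CPM in the controls, and the FPKM ratio of Ndn to Magel2 was 5.06, 12.7 and 15.6 in Zfhx3-CKO and 11.4, 10.3 and 13.5 in the control libraries. Mkrn3, a RING-finger gene, and Snrpn, a splicing protein gene, were near 0, with log2 estimates of 0.02 and 0.06 (adjusted p 0.931 and 0.789); Snrpn overlaps Gm38393 on the same strand, so its reads may be shared. The cortical marker level, 179, 46.8 and 277 CPM, was high in Zfhx3-CKO libraries 1 and 3, which lay at the opposite ends of the Ndn range; its part in the Ndn values was not tested.

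Ube3a, for the ubiquitin ligase that is maternally expressed in neurons, was at 112, 116 and 124 CPM in Zfhx3-CKO LGE, against 152, 141 and 118 CPM in control LGE (log2 fold change -0.22, SE 0.10, adjusted p 0.193). The groups overlapped through control library 3. The paternal antisense RNA Snhg14, which overlaps it and silences it in neurons, was at 114 ± 15.3 CPM in Zfhx3-CKO and 126 ± 15.1 CPM in control libraries (SD, n = 3 each; log2 fold change -0.15, adjusted p 0.449). Because the kit does not mark strand, reads of Ube3a and Snhg14 in their overlap cannot be told apart.

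**Figure D4:**
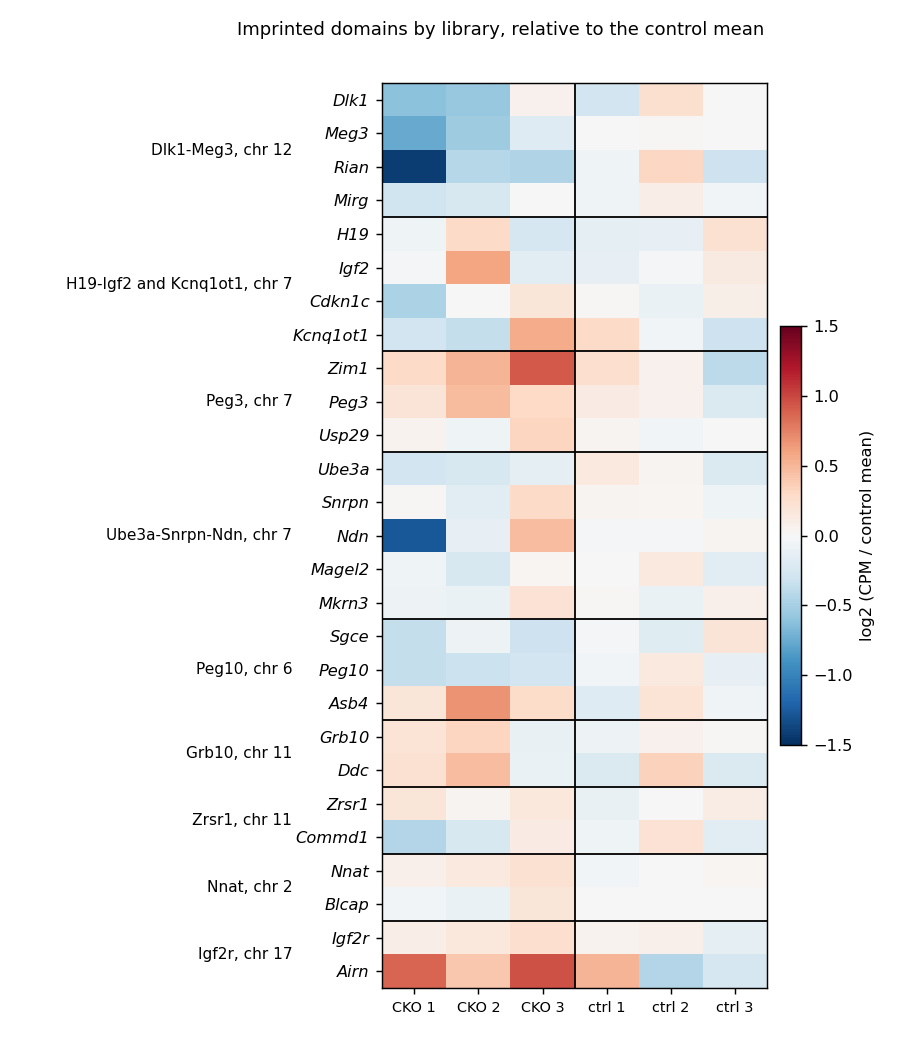
Log2 of CPM over the control mean for imprinted genes that lie in shared domains (rows) in each library (columns, Zfhx3-CKO left of control). Ndn is low in Zfhx3-CKO library 1 (-1.27) and high in library 3 (0.46) while Magel2 beside it lies at -0.07 and 0.03; Meg3 and Rian lie below 0 in all 3 Zfhx3-CKO libraries.

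The Dlk1-Meg3 domain on chromosome 12 holds the paternally expressed Dlk1, a transmembrane relative of the Notch ligands, and 3 maternally expressed noncoding RNAs: Meg3, Rian, a host of small nucleolar RNAs, and Mirg, a host of many microRNAs. The estimates of all 4 genes were below 0, and none passed the threshold. Meg3 was at 8.12, 9.52 and 12.1 CPM in Zfhx3-CKO libraries 1, 2 and 3, against 13.7, 13.9 and 13.7 CPM in control libraries 1, 2 and 3. All Zfhx3-CKO values lay below the controls (log2 fold change -0.47, SE 0.16, adjusted p 0.107), with an adjusted p of 0.0198 without Zfhx3-CKO library 3. Rian was at 3.33, 6.66 and 6.55 CPM in Zfhx3-CKO and 8.53, 11.1 and 7.17 CPM in control LGE, again without overlap (log2 fold change -0.70, SE 0.28, adjusted p 0.163). Dlk1 was at 2.64, 2.75 and 4.25 CPM in Zfhx3-CKO and 3.34, 4.79 and 4.07 CPM in control LGE, with overlap (log2 fold change -0.34, 1.96 SE either side -0.83 to 0.15). Mirg was at 16.4 ± 1.88 CPM in Zfhx3-CKO and 18.4 ± 1.14 CPM in control libraries (log2 fold change -0.17, adjusted p 0.423). The FPKM ratio of Mirg to Meg3, picked after the values were seen, was 4.59, 4.07 and 3.81 in Zfhx3-CKO and 3.20, 3.51 and 3.25 in the control libraries. These genes had few counts: 52 to 83 per Zfhx3-CKO and 56 to 76 per control library for Dlk1, and 166 to 236 per Zfhx3-CKO and 221 to 229 per control library for Meg3. Meg3 averaged 0.654 FPKM over all libraries, and 13.4% of tested genes had a lower mean. As at Gnas, how reads that fit several transcripts or genes were counted is not given. The Meg3 count may therefore not cover the whole output of its locus.

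The growth genes of distal chromosome 7 did not pass either. H19, a maternally expressed noncoding RNA, was at 110.1, 141 and 97.01 CPM in Zfhx3-CKO libraries 1, 2 and 3, against 105, 106 and 135 CPM in the controls (log2 fold change 0.01, 1.96 SE either side -0.28 to 0.30). Igf2, the paternally expressed growth factor that shares its enhancers, was at 57.2, 87.6 and 52.0 CPM in Zfhx3-CKO and 53.2, 57.4 and 63.6 CPM in control LGE (log2 fold change 0.18, adjusted p 0.591). Both genes were highest in Zfhx3-CKO library 2, and the FPKM ratio of H19 to Igf2 was 4.64, 3.87 and 4.50 in Zfhx3-CKO and 4.76, 4.45 and 5.10 in the control libraries. The summed level of 8 meningeal fibroblast markers was also highest in that library, at 26.04, 81.7 and 30.3 CPM in Zfhx3-CKO and 28.9 to 35.99 CPM in control LGE. Of these markers, 3 (Lum, Foxd1 and Slc6a13) averaged under 1 CPM. The summed level of 9 red blood cell genes was highest there too, at 706, 2553 and 813 CPM in Zfhx3-CKO and 711 to 1081 CPM in control LGE, with 3 of the 9 under 1 CPM. That of 10 endothelial and pericyte markers was highest in Zfhx3-CKO library 3 instead, at 305, 324 and 389 CPM in Zfhx3-CKO and 299 to 307 CPM in control LGE. For 7 choroid plexus markers, 5 of them under 1 CPM, it was 11.9, 15.9 and 11.5 CPM in Zfhx3-CKO and 9.13 to 15.1 CPM in control LGE. The part of any of these lists in the Igf2 and H19 values was not tested. In Zfhx3-CKO library 2 against the controls the Igf2 estimate was 0.59 on the log2 scale (adjusted p 0.0122), and without that library -0.08 (adjusted p 0.64).

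Cdkn1c, the maternally expressed inhibitor of cyclin-dependent kinases known as p57, was at 5.63, 7.83 and 8.86 CPM in Zfhx3-CKO and 7.88, 7.24 and 8.25 CPM in control LGE (log2 fold change -0.07, 1.96 SE either side -0.44 to 0.30). Kcnq1ot1, the paternally expressed RNA that silences this domain, was at 10.8 ± 4.08 CPM in Zfhx3-CKO and 10.5 ± 2.18 CPM in control libraries (log2 fold change 0.03, adjusted p 0.961). Igf2r, the receptor that clears Igf2, was at 87.3, 90.9 and 97.01 CPM in Zfhx3-CKO and 84.4, 85.6 and 74.0 CPM in control LGE, without overlap (log2 fold change 0.17, SE 0.08, adjusted p 0.217). Airn, the paternal antisense RNA that silences Igf2r outside neurons, was at 3.13, 2.27 and 3.33 CPM in Zfhx3-CKO and 2.45, 1.26 and 1.44 CPM in control LGE (log2 fold change 0.76, SE 0.30, adjusted p 0.159). The Igf2r and Airn estimates thus had the same sign, and neither passed; the genes overlap on opposite strands, so their reads there cannot be told apart.

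Among the remaining genes of high level, Nnat was at 1873, 1961 and 2079 CPM in Zfhx3-CKO and 1722, 1788 and 1811 CPM in control LGE, without overlap (log2 fold change 0.15, SE 0.06, adjusted p 0.177). Blcap, in whose intron Nnat lies on the opposite strand, was at 109, 104 and 126 CPM in Zfhx3-CKO and 112, 112 and 112 CPM in control LGE (log2 fold change 0.02, adjusted p 0.927). The Nnat difference was thus small and did not pass in any of the alternative settings (adjusted p 0.14 to 0.413). Grb10, an adaptor that restrains insulin and IGF receptors, was at 329, 357 and 266 CPM in Zfhx3-CKO and 271, 298 and 288 CPM in control LGE (log2 fold change 0.15, adjusted p 0.417). Inpp5f, a phosphoinositide phosphatase gene with a paternally expressed brain transcript, was at 227, 218 and 300.4 CPM in Zfhx3-CKO and 312, 293 and 276 CPM in control LGE (log2 fold change -0.24, adjusted p 0.251). In both genes Zfhx3-CKO library 3 lay on the other side of the control mean from libraries 1 and 2, and both passed without it (Grb10 0.26, adjusted p 0.048; Inpp5f -0.40, adjusted p 0.0121).

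The last 6 tested genes all overlapped between the groups, with log2 fold changes from -0.16 to 0.23 and adjusted p of 0.307 or more. Plagl1, a zinc-finger regulator of growth, was at 122 ± 23.8 CPM in Zfhx3-CKO and 120.3 ± 5.66 CPM in control libraries (SD, n = 3 each, as for the genes that follow). Nap1l5, a nucleosome assembly relative inside Herc3, was at 35.7 ± 6.15 CPM in Zfhx3-CKO and 30.4 ± 2.65 CPM in control libraries, the highest estimate of the 6. Trappc9, a vesicle trafficking gene, was at 56.3 ± 2.11 CPM in Zfhx3-CKO and 55.3 ± 1.44 CPM in control libraries, and 1.96 SE either side of its log2 fold change ran from -0.11 to 0.16. The other 3 had low levels. Zrsr1, a splicing factor gene inside Commd1, was at 8.53 ± 0.435 CPM in Zfhx3-CKO and 7.82 ± 0.605 CPM in control libraries. Commd1, a gene of copper and membrane protein handling, was at 3.01 ± 0.61 CPM in Zfhx3-CKO and 3.37 ± 0.476 CPM in control libraries. Ddc, the decarboxylase of dopamine synthesis beside Grb10, was at 2.81 ± 0.54 CPM in Zfhx3-CKO and 2.42 ± 0.575 CPM in control libraries.

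Of 40 other imprinted genes listed, 37 were found and 28 tested, of which 1 rose, 1 fell and 26 did not pass (median log2 fold change 0.06). The 2 calls are 7.14% of the 28, near the 7.36% of all tested genes. Peg12, a paternally expressed gene near Ndn, was at 22.7, 25.8 and 17.8 CPM in Zfhx3-CKO and 13.1, 13.1 and 15.1 CPM in control LGE (log2 fold change 0.68, SE 0.15, adjusted p 0.0347). Rasgrf1, a paternally expressed Ras exchange factor of neurons on chromosome 9, was at 10.1, 8.78 and 15.6 CPM in Zfhx3-CKO and 23.0, 19.2 and 19.7 CPM in control LGE (log2 fold change -0.84, SE 0.21, adjusted p 0.0461). Both genes were apart between the groups. With 1 library left out, both kept their call without Zfhx3-CKO library 3, and neither did without any of the other 5 (Zfhx3-CKO libraries 1 and 2 and the 3 controls; adjusted p 0.0514 to 0.186). A further list held 19 factors linked to imprints, among them the methyltransferases, ZFP57 and the Tet dioxygenases, which act in removing methylation. Of these, 17 were tested and none was called by edgeR or DESeq2, with 1 at an unadjusted p under 0.05 and a median log2 fold change of 0.02. The smallest p values were those of Trim28, the corepressor that ZFP57 recruits (586 ± 14.03 CPM in Zfhx3-CKO and 506 ± 33.2 CPM in control libraries; log2 fold change 0.21, adjusted p 0.0952), and Tet2, a methylcytosine dioxygenase (log2 fold change -0.19, adjusted p 0.219).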

How the data were processed

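RNA-seq gene tables of 6 libraries (3 Zfhx3-CKO, 3 control) were used; depth was 15938590 to 20311799 counts per library. Per the submitters' processing notes, bcl2fastq 2.17.1.14, HISAT2, StringTie and edgeR were used with GRCm38.p4 (mm10). The authors deposited read counts per gene and FPKM, which for 12325 genes with at least 50 counts in all equals the count over total counts and a fixed exon length. The authors' deposited table also holds, per the file headers, normalised values (a signal scaled by library), a log2 fold change, a fold ratio, a p-value and an adjusted p-value, used where named. Its second, shorter table of 3726 genes held the same values.

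Counts were tested with edgeR 4.0.16 in R 4.3.3 (filterByExpr with a minimum count of 10, TMM, quasi-likelihood test), with no block and Benjamini-Hochberg adjustment over 16551 genes; calls are at an adjusted p under 0.05. CPM are counts over the TMM-scaled library total. DESeq2 1.42.0, limma 3.58.1 on log2(FPKM + 1), other scalings and filters, each library left out and a replicate block were alternatives; Zfhx3-CKO library 2 against the controls was added after seeing the data. The genes and lists were chosen with earlier results of these data known. Every library value is given for called genes, the 8 highest by FPKM, the 6 smallest p that did not pass, and a list of well-known imprinted genes. The test was checked on counts simulated from the fitted dispersions. These hold no sex difference, uneven dissection or unequal spread between groups, so the check does not cover them.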

Additional observations from a re-analysis of the deposited data

How the results depend on the processing

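Of the 4 called genes Gnas kept its call in all 14 alternatives, and the estimates of all 4 kept their direction. The share of all tested genes called in either direction changed with the setting. It was 7.36% in the main fit, 1.89% with the block, 5.96% with DESeq2 and 6.27% with no low-count filter. The stricter filter gave 9.32%, limma 6.74%, and a library left out 1.7 to 12.5%. The counts that follow are to be read beside these shares and not as results about the classes. Of the 34 tested genes 2 were higher and 2 lower. With the replicate block 1 was higher and 0 lower, with limma on FPKM 1 was lower, in Zfhx3-CKO library 2 against the controls 5 were higher (4.97% of all genes were) and 1 lower, and leaving out a library gave 2 to 3 higher and 0 to 4 lower. Paternally expressed genes (1 higher, 2 lower) had 0 and 0 with the block, 2 higher with DESeq2 or no low-count filter, 1 lower with limma, 3 higher and 0 lower in Zfhx3-CKO library 2, and 1 to 1 higher and 0 to 2 lower with a library left out. Maternally expressed genes (0 and 0) had 1 higher in Zfhx3-CKO library 2 and 0 to 1 lower with a library left out. The tissue- or transcript-dependent genes (1 and 0) had 1 to 2 higher and 0 to 1 lower with a library left out, and 1 lower in Zfhx3-CKO library 2. Other imprinted genes (1 and 1) had 0 and 0 with the block, 3 higher with DESeq2, no filter or Zfhx3-CKO library 2, 0 lower with the stricter filter or limma, and 0 to 1 higher and 0 to 3 lower with a library left out. The factors linked to imprints (0 and 0) had 0 to 1 higher with a library left out. Over all 16551 tested genes 640 were higher (3.87%) and 578 lower (3.49%), and the block gave 176 (1.06%) and 136 (0.822%). DESeq2 called 1011 of 29651 higher (3.41%) and no filter 1075 of 29659 (3.62%), so the counts grew with the genes tested while the shares did not. A library left out gave 156 to 1082 higher (0.913 to 6.47%) and 131 to 1014 lower (0.769 to 6.06%). Zfhx3 had -0.36 with no filter (adjusted p 0.0308) and -0.50 to -0.29 with a library left out; it passed without control library 3.

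Estimates that changed sign were past the threshold in neither setting. With a library left out they ran from -0.085 to 0.319 for Igf2, -0.323 to 0.205 for Kcnq1ot1, -0.001 to 0.196 for Usp29, -0.095 to 0.167 for Plagl1, -0.584 to 0.202 for Ndn, -0.168 to 0.001 for Magel2, -0.085 to 0.081 for Mkrn3, -0.064 to 0.162 for Snrpn, -0.149 to 0.135 for H19, -0.213 to 0.103 for Cdkn1c, -0.07 to 0.075 for Blcap and -0.001 to 0.053 for Trappc9. In Zfhx3-CKO library 2 against the controls they were -0.361 for Kcnq1ot1, -0.059 for Usp29, -0.094 for Mkrn3, -0.153 for Snrpn, 0.007 for Cdkn1c and -0.103 for Blcap. The block gave -0.012 for Kcnq1ot1 and -0.004 for Plagl1, and limma -0.007 for Plagl1 and -0.002 for H19. The cause of these differences was not tested. Libraries with the same number did not deviate together (correlations -0.04, -0.08 and -0.25), so the block pairs libraries that share only a number. Impact, Peg10 and Mest had adjusted p of 0.117, 0.135 and 0.0566 with it. Fits with Zfhx3-CKO library 2 alone assume that it varies as the controls do. Depth limits genes of few counts such as Dlk1, Rian and Commd1.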
